A study of Homo sapiens with 60 samples.

Results

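The insulin-like growth factor binding proteins (IGFBP1 to IGFBP7), the type 1 IGF receptor (IGF1R) and the long noncoding RNA H19 were followed in plant-extract-treated A549 cells, which are a line of human lung adenocarcinoma. These 9 genes were taken by their symbols from the 60675 genes of the count table, and all 9 had counts and were tested. The set was chosen by log2 fold changes in earlier results of the same libraries, among which H19 and IGFBP5 stood out, so the comparisons in which they had stood out are given below as descriptions, with no p-value. These are the comparisons that hold Menthae Herba at 500 µg/mL, Guibi-tang at 500 against vehicle, against its own 20 and against Saengmaek-san, and Soyo-san against Okbyeongpung-san at 500. In the other 29 comparisons, changes were tested with edgeR's quasi-likelihood test, with Benjamini-Hochberg adjustment over all 17256 genes tested.

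All 60 libraries came from A549 cells harvested after 24 hours. Hot-water extracts of 2 single herbs, Menthae Herba and Saposhnikoviae Radix, and of the 4 decoctions Soyo-san, Okbyeongpung-san, Guibi-tang and Saengmaek-san were each given at 20, 100 and 500 µg/mL with 3 libraries per dose. The decoction Soshiho-tang had 1 library per dose, and the vehicle, labelled as 0.1% DMSO, had 3 libraries. The text on the whole series gives 2% DMSO instead, and it also says that extracts with an IC20 under the top dose were given at lower doses. The doses below are those of the sample labels. Separate cultures are not named in the labels, and the spread behind each p-value is therefore that of these libraries, which may be technical. Soyo-san is a formula that contains mint, and Okbyeongpung-san one that contains Saposhnikovia root, which is why each was set against that herb.

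IGFBPs are secreted proteins that bind the insulin-like growth factors IGF1 and IGF2 outside the cell, lengthen their life and control how much reaches the receptor. IGF1R is the tyrosine kinase through which both growth factors signal growth and survival. H19 is an imprinted noncoding RNA made from the maternal copy of the IGF2/H19 locus; it is abundant in the fetus, is expressed again in many tumours and is the host transcript of the microRNA miR-675.

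The sequences upstream of H19, IGFBP5 and IGFBP3 are shown first, since these are the promoters of the 3 transcripts followed library by library below. Each line gives the 250 bases before the RefSeq start of the gene (GRCh38.p14, minus strand for all 3, written 5′ to 3′), and capitals mark matches to a short motif. The GENCODE extents of H19 and IGFBP3 given below start farther upstream and reach into these windows.
H19, chr11:2001267-2001516: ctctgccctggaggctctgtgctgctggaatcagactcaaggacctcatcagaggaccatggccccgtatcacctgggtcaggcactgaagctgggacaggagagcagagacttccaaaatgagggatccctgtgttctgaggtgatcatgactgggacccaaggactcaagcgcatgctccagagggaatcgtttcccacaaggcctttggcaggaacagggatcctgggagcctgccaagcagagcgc
IGFBP5, chr2:216695550-216695799: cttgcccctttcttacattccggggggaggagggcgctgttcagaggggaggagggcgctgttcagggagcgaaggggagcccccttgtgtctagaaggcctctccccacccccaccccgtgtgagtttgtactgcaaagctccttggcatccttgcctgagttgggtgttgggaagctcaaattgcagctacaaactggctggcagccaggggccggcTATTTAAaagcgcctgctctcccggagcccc
IGFBP3, chr7:45921273-45921522: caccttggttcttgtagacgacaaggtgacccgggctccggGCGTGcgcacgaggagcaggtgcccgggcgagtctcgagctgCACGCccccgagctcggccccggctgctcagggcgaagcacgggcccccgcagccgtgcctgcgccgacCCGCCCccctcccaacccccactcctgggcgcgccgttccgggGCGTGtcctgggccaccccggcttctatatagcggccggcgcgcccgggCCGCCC
Both strands were searched for GCGTG (the core of the aryl hydrocarbon receptor element), TATAAA and TATTTAA (forms of the TATA box), GGGCGG (the GC box), CACGTG (the E-box) and TGACTCA (the AP-1 element). In the H19 window none of the 6 motifs was found. IGFBP5 held TATTTAA once, starting at base 220, and 4.17% of 35116 promoter windows of the same length held it. IGFBP3 held GCGTG or its complement at bases 42, 84 and 196 and GGGCGG or its complement at bases 153 and 245, motifs that 32.2% and 42.6% of the windows held. A match is a string of letters and no measure of binding.

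The H19 transcript also carries the hairpin of miR-675. Its mature RNAs are shown with the seed, bases 2 to 8, in capitals, because the counts below are of the host transcript and did not measure them.
miR-675-5p, chr11:1996800-1996822, minus strand: uGGUGCGGagagggcccacagug
miR-675-3p, chr11:1996768-1996787, minus strand: cUGUAUGCccucaccgcuca
The 2 arms have different seeds.

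Among the 9 genes, IGFBP4 had by far the highest level in A549 cells, and IGFBP1 the lowest. Levels are given as CPM, the count scaled to the total of its library, and, to compare genes, as CPM per kilobase of exon. IGFBP4, which holds IGFs away from the receptor until the protease PAPPA cleaves it, had a median of 862 CPM per kilobase over the 60 libraries. H19 followed at 41.5 and IGFBP3, the main carrier of IGFs in blood, at 32.1 CPM per kilobase. The receptor IGF1R (28.7), IGFBP7 (25.0), which binds IGFs weakly, and IGFBP6 (22.8), which prefers IGF2, lay close together on the same scale. IGFBP2 had 4.74 and IGFBP5 2.93 CPM per kilobase. IGFBP1, known as an insulin-repressed liver product, had 0.799 CPM per kilobase and between 16 and 50 counts per library.

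**Figure D1:**
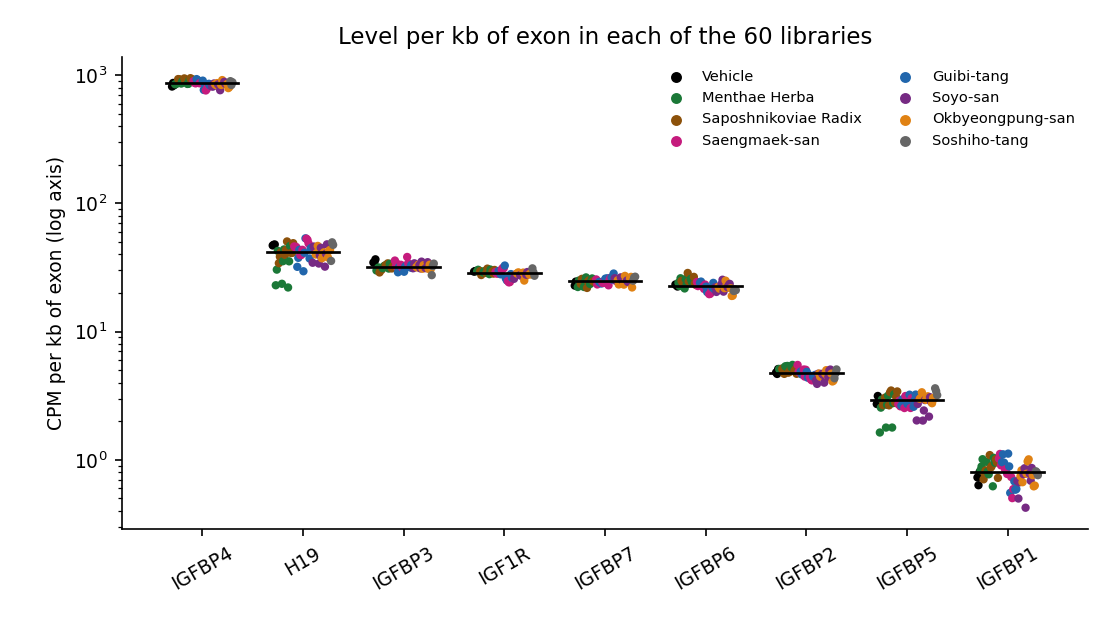
Level of each of the 9 genes in the 60 libraries, as CPM per kilobase of exon on a log axis. IGFBP4 stood at a median of 862, H19 at 41.5 and IGFBP1 at 0.799.

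These genes lie in 2 close pairs and 5 separate places in the GENCODE 29 annotation of GRCh38. IGFBP1 (chr7:45888357-45893668, plus strand) ends 18577 bases before IGFBP3 (chr7:45912245-45921874, minus strand), and IGFBP2 (chr2:216632828-216664436, plus strand) ends 7669 bases before IGFBP5 (chr2:216672105-216695525, minus strand). H19 lies at chr11:1995176-2001470 on the minus strand, and 34 of 60 libraries gave it a count that was not whole, which RSEM produces where reads are shared between features. IGFBP7 (chr4:57030773-57110385, minus strand) had such counts in 57 of 60 libraries and overlaps POLR2B, a subunit of RNA polymerase II with 133 CPM, on the opposite strand. Whether the counting used strand is not given, so the IGFBP7 values are uncertain. IGFBP2, the neighbour of IGFBP5, had log2 differences between -0.10 and 0.09 in the 29 tested comparisons and was not called in any of them.

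Library totals ran from 18330631 to 35308811 counts (median 24202065). The A549 markers KRT7, KRT8, KRT18, ALDH1A1 and AKR1B10 were abundant, and the A549 list of 10 genes summed to 15025 to 19614 CPM in extract libraries, against 18935 to 19108 CPM in vehicle libraries. EPCAM had a median of only 4.59 CPM and KRT19 of 25.2 CPM, and CDKN2A, deleted in the line, had 7 counts in all. Of 8 markers of immune cells, endothelium and fibroblasts, CD3E was 0 in every library. The fibroblast marker COL1A1 (median 31.7 CPM) and the leukocyte marker CD68 (median 11.01 CPM) had counts in every library. The 8 summed to 36.6 to 51.9 CPM in extract libraries, against 37.8 to 41.0 CPM in vehicle libraries, mostly from COL1A1 and CD68. In the order of the library names, the share of counts from the 37 mitochondrially encoded genes was 12.9% to 22.2% in the 29 libraries after the 31st and 10.7% to 13.9% in the 31 up to it. All vehicle and single-herb libraries came before this step, and all Soyo-san, Okbyeongpung-san and Soshiho-tang libraries after it. The labels do not say what the step is. In bulk libraries, fewer cells of a kind and less RNA per cell cannot be told apart.

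H19 was lower in Menthae Herba libraries the higher the dose. It had 136, 138 and 139 CPM in vehicle libraries, 123, 127 and 135 CPM at 20 µg/mL, 88.2, 103 and 102 CPM at 100, and 66.6, 68.3 and 64.0 CPM at 500. The 3 libraries at 500 lay below all other 57 libraries, and the doses of 100 and 500 did not overlap with 20 or with vehicle. At 500 the mean was 66.3 ± 2.20 CPM, against 137 ± 1.25 CPM in vehicle (SD, n = 3 each), a log2 difference of -1.09 (SE 0.121), and against 128 ± 5.99 CPM at 20 the log2 difference was -0.97. H19 and IGFBP5 ranked 2nd and 7th from the lowest log2 difference in that comparison with vehicle, which is how they came to be described here. That ranking held only named genes past the threshold, over a minimum level and with no overlap between the groups.

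At 100 µg/mL Menthae Herba, a comparison that the choice of genes did not use but that shares the vehicle libraries with one it did, H19 averaged 97.7 ± 8.23 CPM, against 137 ± 1.25 CPM in vehicle (SD, n = 3 each). It fell by 0.53 on the log2 scale (SE 0.118, adjusted p = 0.0141), lower in 3 of 3 libraries. Of all genes, 0.974% were called in this comparison, and H19 was the 1 member called. Its call was lost without Menthae Herba 100 replicate 1 (adjusted p = 0.128), without vehicle replicate 2 (0.0734) and without vehicle replicate 3 (0.0616), with log2 differences of -0.46, -0.53 and -0.52. Against its own 20, Menthae Herba at 100 gave H19 a log2 difference of -0.41 (adjusted p = 0.706), which was not called.

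IGFBP5, a binding protein that adheres to extracellular matrix, had the same order of doses in Menthae Herba libraries. It had 17.6, 20.3 and 18.5 CPM in vehicle libraries, 19.04, 20.4 and 20.9 CPM at 20, 16.4, 17.3 and 17.8 CPM at 100, and 10.5, 11.5 and 11.5 CPM at 500. The 20 and 100 libraries overlapped with vehicle, while the 3 at 500 lay below every other library of the series. At 500 it averaged 11.2 ± 0.564 CPM, against 18.8 ± 1.38 CPM in vehicle (SD, n = 3 each), a log2 difference of -0.79 (SE 0.0791), and against 20.1 ± 0.964 CPM at 20 the log2 difference was -0.86. At 100 against vehicle the log2 difference was -0.17 (adjusted p = 0.357). Of the 9 genes, 3 were past the threshold at 500 against vehicle and 2 against 20, beside 6.77% and 2.43% of all genes; since these comparisons chose the genes, nothing is read from those counts.

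IGFBP3 differed less than H19 and IGFBP5 in Menthae Herba libraries. It had 137, 143 and 142 CPM at 500, against 145, 149 and 152 CPM at 20 and 158, 159 and 167 CPM in vehicle. Its log2 difference at 500 was -0.24 from vehicle and -0.10 from 20, and all 3 doses lay below the vehicle libraries.

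**Figure D2:**
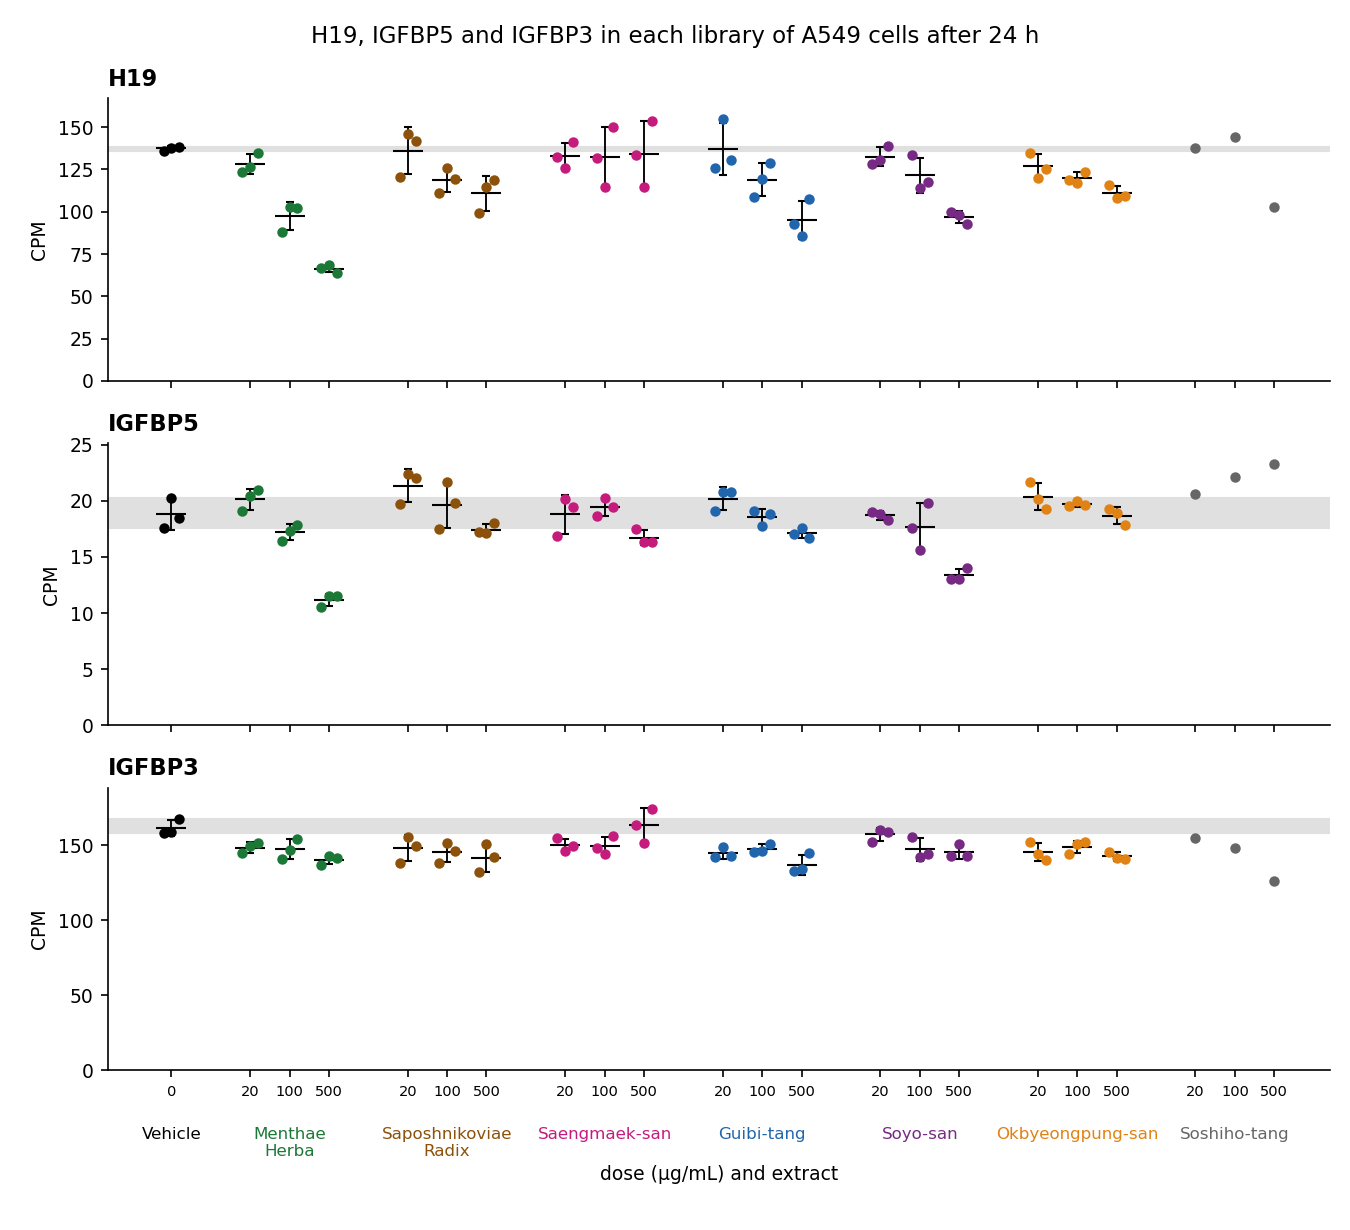
CPM of H19, IGFBP5 and IGFBP3 in each library, with vehicle first and each extract at 20, 100 and 500 µg/mL; bars give mean ± SD and the grey band the range of the 3 vehicle libraries. H19 reached 64.0 to 68.3 CPM and IGFBP5 10.5 to 11.5 CPM in Menthae Herba libraries at 500, below every other library.

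Soyo-san, the mint-containing decoction, also had lower IGFBP5 and H19 at 500. IGFBP5 had 17.6, 20.3 and 18.5 CPM in vehicle libraries, 19.04, 18.8 and 18.3 CPM at 20, 17.6, 15.6 and 19.8 CPM at 100 and 13.1, 13.04 and 13.998 CPM at 500. The 500 libraries lay below those of both lower doses and vehicle, and the 100 libraries overlapped with vehicle. IGFBP5 fell by 0.46 on the log2 scale against vehicle (SE 0.0764, adjusted p = 7.86e-05) and by 0.49 against its own 20 (SE 0.0782, adjusted p = 7.17e-05). The low Soyo-san 500 libraries also entered the comparison with Okbyeongpung-san that helped choose IGFBP5, so these p-values are not independent of that choice. Both calls were kept without any 1 of the libraries compared, with adjusted p between 7.6e-05 and 0.00343 against vehicle and between 0.000182 and 0.00255 against 20.

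H19 had 136, 138 and 139 CPM in vehicle libraries and, in Soyo-san libraries, 128, 131 and 139 CPM at 20, 133, 114 and 117 CPM at 100 and 99.7, 98.4 and 93.0 CPM at 500. Again the 500 libraries did not overlap with any of those groups. H19 fell by 0.46 on the log2 scale against vehicle (SE 0.118, adjusted p = 0.0113), a call lost without Soyo-san 500 replicate 3, where the difference was -0.42 (adjusted p = 0.0609). Against its own 20 the difference was also -0.46 (SE 0.119, adjusted p = 0.0588), just outside the threshold. IGFBP3 had 143, 151 and 143 CPM at 500, against 158, 159 and 167 CPM in vehicle, a log2 difference of -0.12 (adjusted p = 0.352).

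That comparison of H19 at 500 with 20 changed sides of the threshold with the processing. With the replicate block its log2 difference was -0.45 (adjusted p = 0.0365), with DESeq2 -0.46 (0.0203), and among only the libraries after the step -0.46 (0.00376), all past the threshold. All Soyo-san libraries lie after the step and all vehicle libraries before it, so the step cannot be told apart from the extract in that comparison except through the decoctions that cross it. With a term for the step, the Soyo-san 500 against vehicle differences were -0.82 for H19, -0.60 for IGFBP5 and -0.31 for IGFBP3, all 3 called.

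Of all genes, 6.03% were called for Soyo-san 500 against vehicle and 0.614% against its own 20. Of the 9 genes, 2 and 1 were. The 2 extracts that hold mint differed in size at 500: H19 had 99.7, 98.4 and 93.0 CPM with Soyo-san, against 66.6, 68.3 and 64.0 CPM with Menthae Herba, a log2 difference of 0.63, and IGFBP5 differed by 0.34. The step term moved these 2 differences to 0.27 and 0.20. The weight of mint in a dose of Soyo-san is not given in the labels.

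Guibi-tang had lower H19 at 500 than at 20 and than vehicle, and IGFBP5 lower than at 20. H19 had 136, 138 and 139 CPM in vehicle libraries, 126, 155 and 131 CPM at 20, 109, 119 and 129 CPM at 100 and 92.7, 85.6 and 108 CPM at 500. The 500 libraries lay below all those of 20 and vehicle, by log2 differences of -0.59 and -0.54. Of the 9 genes, 2 were past the threshold against each of them, beside 0.997% and 4.42% of all genes, and again nothing is read from counts in comparisons that chose the genes. IGFBP5 had 17.1, 17.6 and 16.7 CPM at 500, against 17.6, 20.3 and 18.5 CPM in vehicle, with the highest of the 3 level with the lowest vehicle library and a log2 difference of -0.16. Against 19.1, 20.7 and 20.8 CPM at 20 the groups did not overlap and its difference was -0.31. IGFBP3 had 133, 134 and 145 CPM at 500, against 158, 159 and 167 CPM in vehicle, a log2 difference of -0.25.

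In Guibi-tang the 500 replicates 1 and 2 came before the step and replicate 3 after it. Without replicate 3 the H19 difference from vehicle was -0.68, and with the step term -0.67. Against 20, with the step term, the differences were -0.48 for H19 and -0.26 for IGFBP5.

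Set against each other, the 2 decoctions differed in IGFBP5 and not detectably in H19. IGFBP5 had 17.1, 17.6 and 16.7 CPM with Guibi-tang at 500, against 13.1, 13.04 and 13.998 CPM with Soyo-san at 500, and the groups did not overlap. It was 0.30 higher on the log2 scale (SE 0.0796, adjusted p = 0.0498), where 0.939% of all genes were called. These are the same Soyo-san 500 libraries that helped choose IGFBP5. That call stood at the threshold: it was lost without any 1 of the 6 libraries, with adjusted p between 0.0897 and 0.214, and also with mitochondrially encoded genes left out (0.0508) and with only these groups fitted (0.25). H19 had a ratio of 0.948 with a 95% interval of 0.805 to 1.12 (adjusted p = 0.846).

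No fall in H19 was called with Saengmaek-san. It had 136, 138 and 139 CPM in vehicle libraries, 132, 126 and 141 CPM at 20, 132, 115 and 150.1 CPM at 100 and 134, 114 and 154 CPM at 500. At each dose the libraries reached both below and above the vehicle range. The ratio at 500 was 0.979 to vehicle (95% interval 0.835 to 1.15, adjusted p = 0.972) and 0.998 to 20 (0.850 to 1.17). IGFBP5 had 17.5, 16.3 and 16.3 CPM at 500, against 17.6, 20.3 and 18.5 CPM in vehicle, a log2 difference of -0.17 (adjusted p = 0.421). Beside Saengmaek-san at 500, Guibi-tang at 500 had H19 lower by a log2 difference of -0.51 and IGFBP3 by -0.27. Without Saengmaek-san 500 replicate 3, which lies after the step, these were -0.35 and -0.18.

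Within Saengmaek-san and Guibi-tang, which both cross the step in library order, H19 was higher in libraries after it. Saengmaek-san had a median of 150.1 CPM after the step (141 to 154, 3 libraries), against 129 CPM before it (114 to 134, 6 libraries). Guibi-tang had 129 CPM after (108 to 155, 5 libraries), against 101 CPM before (85.6 to 126, 4 libraries), with its doses spread unevenly over the step. The receptor IGF1R went the other way, with medians of 339.6 CPM after and 416 CPM before in Saengmaek-san, and 367 CPM after and 409 CPM before in Guibi-tang. Computed without the mitochondrially encoded genes, the Saengmaek-san medians were 187 CPM after and 146 CPM before for H19, and 422 CPM after and 471 CPM before for IGF1R. The Guibi-tang medians on that basis were 153 CPM after and 114 CPM before for H19, and 444 CPM after and 465 CPM before for IGF1R, so the directions held in both. IGFBP4 had 1716 CPM after and 1920.4 CPM before in Saengmaek-san, but 2202 CPM after and 2192 CPM before without those genes. In Guibi-tang it stayed lower after the step on that basis, at 2184 CPM after and 2292 CPM before. All libraries of the single herbs and vehicle lie before the step, so their differences do not cross it.

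**Figure D3:**
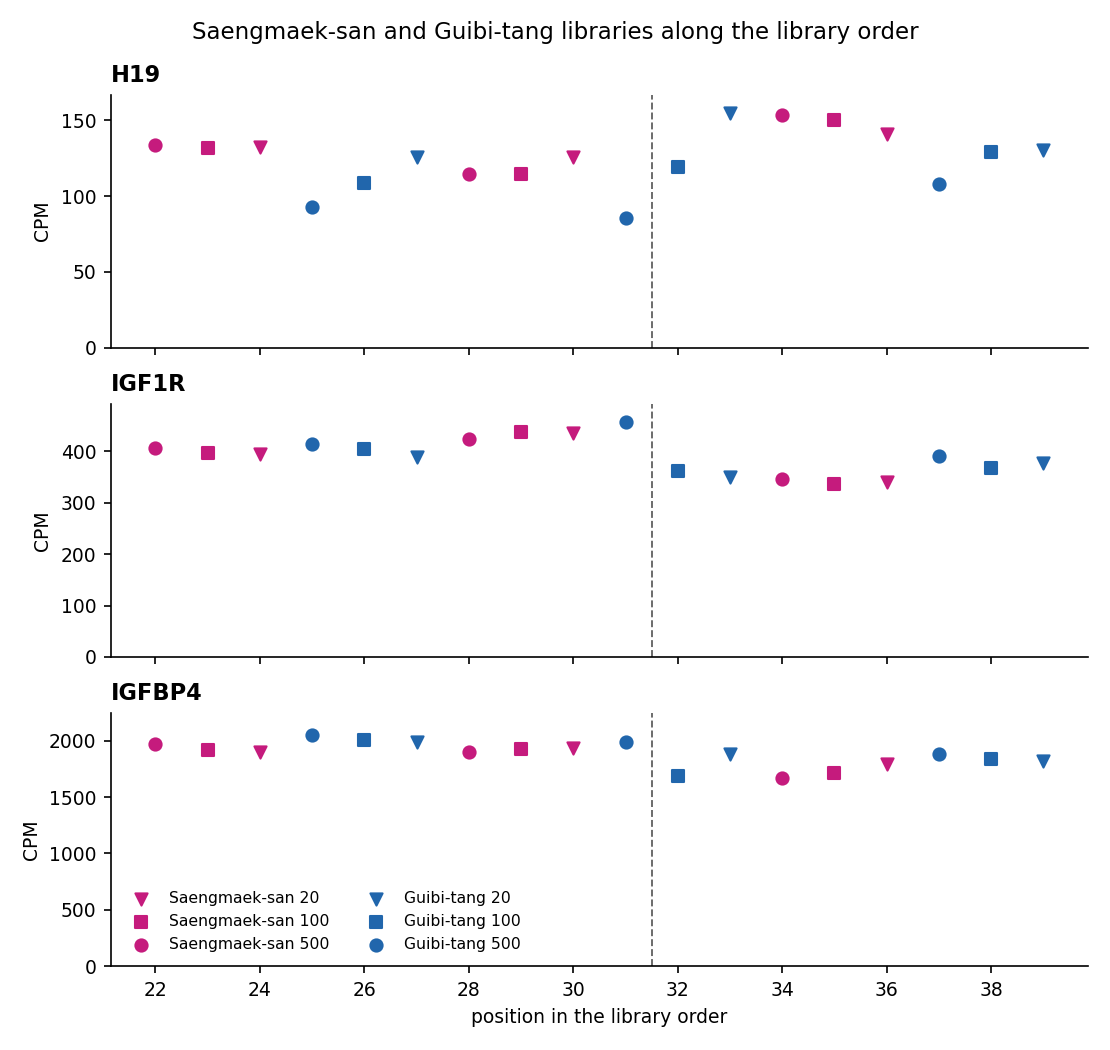
CPM of H19, IGF1R and IGFBP4 in the Saengmaek-san and Guibi-tang libraries by their place in library order, with the step after the 31st library as a dashed line. In Saengmaek-san, H19 was higher (median 150.1 against 129 CPM) and IGF1R lower (339.6 against 416 CPM) after the step.

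The remaining herb and decoction gave small differences. With Saposhnikoviae Radix at 500, H19 had 99.0, 115 and 119 CPM, against 136, 138 and 139 CPM in vehicle, with no overlap, and the log2 difference of -0.36 was not called (adjusted p = 0.114). IGFBP3 had 132, 151 and 142 CPM, against 158, 159 and 167 CPM, and its difference of -0.24 was not called either (adjusted p = 0.0714). Both were called when only libraries before the step were fitted, at the same log2 differences, with adjusted p of 0.00154 for H19 and 0.00081 for IGFBP3. So were IGFBP4 (0.12) and IGFBP6 (0.17), both higher than in vehicle. IGFBP5 had 17.2, 17.1 and 17.9995 CPM at 500, against 19.7, 22.4 and 21.99 CPM at 20, a log2 difference of -0.31 (adjusted p = 0.132).

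Okbyeongpung-san at 500 had H19 at 116, 108 and 109.5 CPM, against 136, 138 and 139 CPM in vehicle, a log2 difference of -0.29 (adjusted p = 0.176). With the step term it was -0.65 and called, while against its own 20, where all libraries lie after the step, it was -0.22 and not called. IGFBP5 had 19.3, 18.9 and 17.8 CPM, against 17.6, 20.3 and 18.5 CPM in vehicle, overlapping throughout. Between Soyo-san and Okbyeongpung-san at 500, IGFBP5 differed by -0.46 and H19 by -0.17 on the log2 scale. Between Okbyeongpung-san and Saposhnikoviae Radix at 500 no member was called; IGFBP6 came nearest, at -0.22 (adjusted p = 0.0859).

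Set in order, the 6 extracts at 500 kept different shares of their own level at 20. H19 at 500 stood at 51.7% of its mean CPM at 20 with Menthae Herba, 69.6% with Guibi-tang, 73.2% with Soyo-san, 81.4% with Saposhnikoviae Radix, 87.5% with Okbyeongpung-san and 100.6% with Saengmaek-san. For IGFBP5 the same shares were 55.5% with Menthae Herba, 71.4% with Soyo-san, 81.7% with Saposhnikoviae Radix, 84.7% with Guibi-tang, 89.0% with Saengmaek-san and 91.6% with Okbyeongpung-san. Guibi-tang had the second lowest share for H19 and the fourth lowest for IGFBP5.

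**Figure D4:**
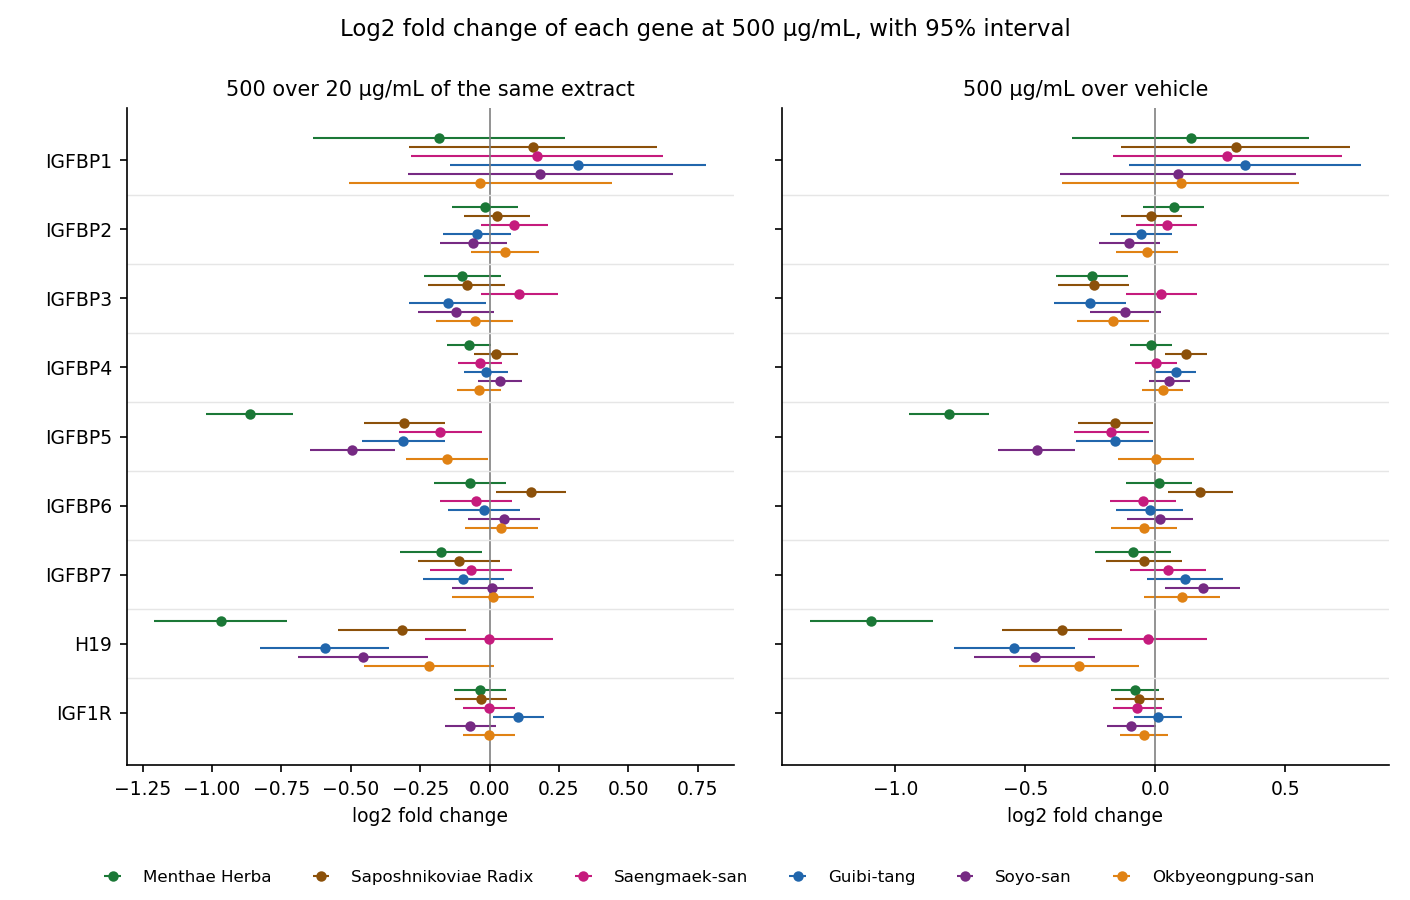
Log2 fold change of the 9 genes at 500 µg/mL over 20 of the same extract and over vehicle, for 6 extracts, with 95% intervals. Among the points over vehicle, those for H19 (-1.09) and IGFBP5 (-0.79) with Menthae Herba lie farthest from 0.

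Over the 19 groups of 3 libraries, ordered by mean level, most neighbours overlapped. For H19, 1 of 18 neighbouring pairs did not overlap, that between Menthae Herba at 500 and the next group, Guibi-tang at 500. For IGFBP5, 2 of 18 did not, which set Menthae Herba at 500 and then Soyo-san at 500 apart from the rest. IGFBP3 had no such gap, with Guibi-tang at 500 lowest and Saengmaek-san at 500 (164, 152 and 175 CPM) highest. How many such gaps other genes have is not given here.

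In the tested comparisons the counts of calls over the members were as follows. Every call shares vehicle or Soyo-san 500 libraries with a comparison that chose the members. The counts are therefore not independent of that choice. At 500 against vehicle, 2 of 36 pairs of member and comparison were called, both lower, in 4 comparisons where 2.9% of all genes were called. At 500 against 20, 1 of 36 was called, lower, in 4 comparisons where 0.198% of genes were. At 100 or 20 against vehicle, 1 of 108 was called, lower, in 12 comparisons where 1.09% of genes were. Between extracts, 1 of 27 was called, higher, in 3 comparisons where 0.655% of genes were. At 100 against 20 none of 54 was called with edgeR or with DESeq2, although 2 had an unadjusted p under 0.05, and 0.00676% of all genes were called in those 6 comparisons.

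IGFBP1, IGFBP2, IGFBP4, IGFBP6, IGFBP7 and IGF1R were not called in any of these 29 comparisons. The receptor IGF1R had log2 differences between -0.09 and 0.10 (lowest adjusted p = 0.257), and IGFBP4 between -0.09 and 0.12 (0.133). IGFBP6 ran from -0.22 to 0.17 (0.0859), IGFBP7 from -0.11 to 0.21 (0.138), and IGFBP2 had a lowest adjusted p of 0.345. IGFBP1, with the fewest counts, ran from -0.21 to 0.32 (0.567).

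IGFBP3 lay below vehicle across doses rather than by dose. All 3 libraries were below the 3 vehicle libraries in 5 of 6 extracts at 20, 6 at 100 and 5 at 500, but below their own 20 in only 2 of 6 extracts at 500. For IGFBP5 the counts below vehicle were 0 of 6 extracts at 20, 0 at 100 and 4 at 500. Those at 500 include near ties with the lowest vehicle library (17.558 CPM). The highest library was 17.557 CPM with Guibi-tang and 17.48 CPM with Saengmaek-san. H19 was below vehicle in 2 of 6 at 20, 5 at 100 and 5 at 500. All these counts below vehicle share the same 3 vehicle libraries. The share of all genes that lie below vehicle or below 20 in this way is not given here. Nothing particular to these genes is therefore read from the counts.

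Across the 12 log2 differences from 20 (6 extracts at 100 and at 500), H19 and IGFBP5 lay close to a line, with a Pearson r of 0.92. H19 and IGFBP3 had 0.67, and H19 and IGF1R -0.02. H19 and IGFBP5 were chosen partly for being low in Menthae Herba at 500 against 20, and H19 also in Guibi-tang at 500 against 20, which are among these points. The 2 points of an extract share its libraries at 20 as well, so the 12 values are not independent and no p is given. Of 10743 genes with a mean of at least 5 CPM, those most like H19 were MALL (0.951), FGG, the fibrinogen gamma chain (0.950), and SUSD2 (0.946). Those most like IGFBP5 were FGFR3, a fibroblast growth factor receptor (0.977), DIO2, the type 2 deiodinase (0.970), and NEDD9, an adhesion scaffold protein (0.969). For IGFBP3 they were MBD2 (0.924), TBP (0.903) and TMEM69 (0.898).

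**Figure D5:**
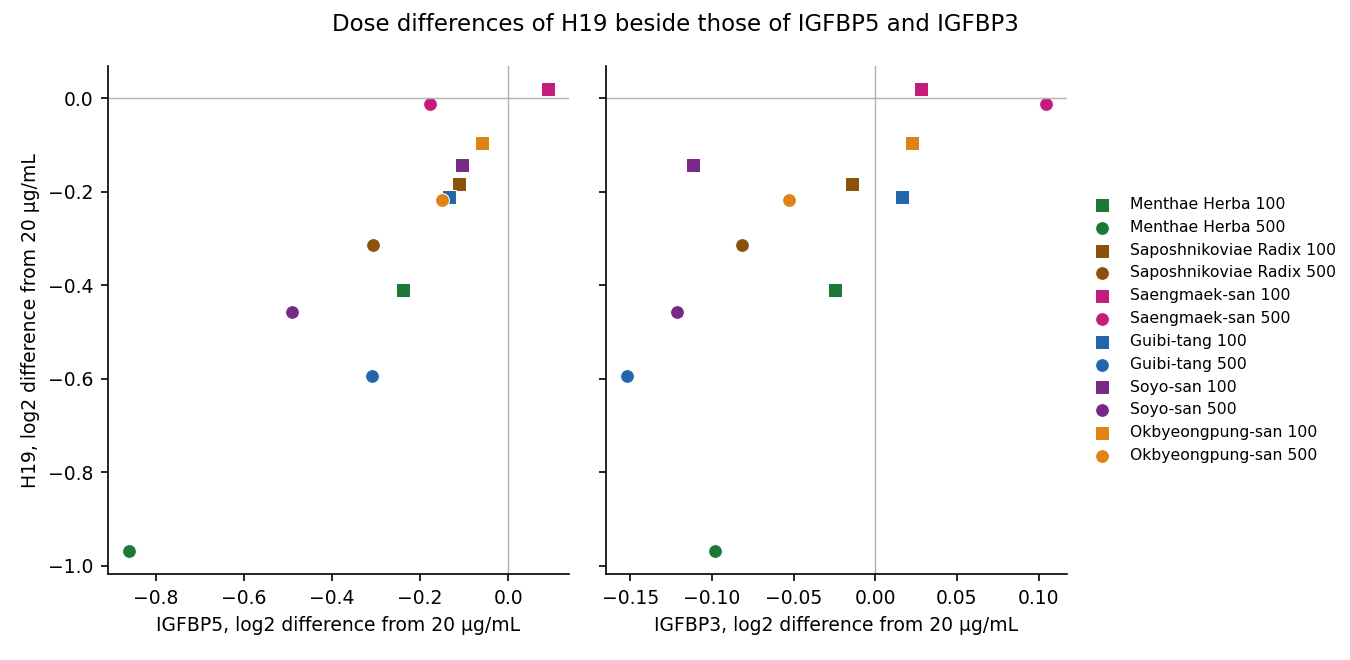
Log2 difference from 20 µg/mL in H19 against that in IGFBP5 and in IGFBP3, 1 point for each of 6 extracts at 100 and at 500. Menthae Herba at 500 lies lowest for H19 (-0.97) and IGFBP5 (-0.86), while for IGFBP3 it lies at -0.10.

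No change in the growth factors themselves was called. IGF2, which shares the imprinted locus with H19, had a median of 9.80 CPM and log2 differences between -0.39 and 0.33 in the 29 comparisons, none called (lowest adjusted p = 0.271). IGF1 had 30 counts over all libraries and was not tested, and the insulin gene INS had none. The insulin receptor INSR ran from -0.07 to 0.16 and was not called (lowest adjusted p = 0.441), while in the Menthae Herba libraries at 500, given as a description, it lay above vehicle by 0.28 and above 20 by 0.29. IGF2R, which clears IGF2 into lysosomes, averaged 144 CPM with Guibi-tang at 500, against 108 CPM with Soyo-san at 500, a rise of 0.36 on the log2 scale (adjusted p = 0.00461), its only call among the 29. With the step term the difference was 0.20, and with only these groups fitted the call was lost (adjusted p = 0.174).

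Of 34 genes of the IGF axis (ligands, receptors, adaptors and proteases of the binding proteins), 30 were tested. At 500 against vehicle, 4 of 120 pairs of gene and comparison were called higher and 2 lower (5% of pairs, beside 2.9% of all genes), and the list's median log2 difference ran from 0.01 to 0.04, against 0.00 to 0.01 for all genes. PAPPA, the protease that cleaves IGFBP4 and IGFBP5, rose in 3 of the 4 comparisons, with log2 differences of 0.19 to 0.32 over all 4. IRS2, an adaptor of IGF1R, rose in 1, and the adaptors GRB2 and SHC1 fell with Soyo-san, calls that the step term ended. In all, the list had 11 calls higher and 2 lower with that term. At 100 or 20 against vehicle, PAPPA rose in 5 and IRS2 in 4 of 12 comparisons, and no gene of the list fell; these 9 calls were 2.5% of the pairs, beside 1.09% of all genes. With the step term there were 27 calls higher, 10 of PAPPA and 8 of IRS2. The share of all genes called with that term is not given here, so nothing is read from the larger counts with it. All these calls share the same 3 vehicle libraries, so the counts are not independent of each other. Neither PAPPA nor IRS2 was called at 500 or at 100 against 20 of the same extract in the tested comparisons. At 500 against 20 in those comparisons the 1 call was STC1, stanniocalcin 1, an inhibitor of PAPPA, which fell by 0.47 with Soyo-san (adjusted p = 0.00977). As a description, STC1 also lay lower with Menthae Herba at 500 than at 20, by a log2 difference of -0.56.

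Of 10 genes related to the IGFBPs by sequence, 8 were tested. At 500 against vehicle, 1 of 32 pairs was called higher and 7 lower (25% of pairs, beside 2.9% of all genes), with list medians of -0.13 to 0.13, against 0.00 to 0.01 for all genes. CCN1, a matrix protein and target of YAP, fell in 4 of 4 comparisons, with log2 differences from -0.45 to -0.27, and in 11 of 12 at the lower doses, all against the same 3 vehicle libraries, so these counts are not independent of each other. CCN4 rose (0.62) and KAZALD1 (-0.59) and CRIM1 (-0.14) fell with Soyo-san, and the step term ended the KAZALD1 and CRIM1 calls. At 500 against 20 in the tested comparisons the 1 call was CRIM1 with Soyo-san (-0.18), and CCN1 was not called there. As a description, CRIM1 lay lower at 500 than at 20 with Menthae Herba (-0.25), and CCN1 did so with Guibi-tang (-0.25).

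Of 18 imprinted genes, 15 were tested. MEG3, a maternally expressed noncoding RNA like H19, rose with Soyo-san (0.21) and Okbyeongpung-san (0.23) at 500 against vehicle, and no other of the 60 pairs was called. With the step term the list had 3 calls higher, 1 of them MEG3, and 4 lower. The share of all genes called with that term is again not given. In Menthae Herba libraries at 500, given as a description, log2 differences from vehicle were -0.19 for MEG3, -0.24 for PEG10 and -0.53 for KCNQ1OT1. CDKN1C went the other way by 1.81, at a low level (0.479 CPM, against 0.126 CPM in vehicle). In the tested comparisons, none of the 15 was called at 500 against 20 or at 100 against 20. With the step term those comparisons held 1 call, lower, at 500 against 20. As a description, PEG10 lay lower with Menthae Herba at 500 than at 20, by a log2 difference of -0.21.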

How the data were processed

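The deposited table holds expected counts per gene that the authors made with RSEM 1.3.3 after STAR 2.7.3a, Trim Galore 0.6.5 and FastQC 0.11.9 on GRCh38, per the submitters' processing notes; the annotation release and the use of strand in counting are not given in the sources used here. Libraries were made with a directional mRNA kit and read as paired ends, per the labels' protocols. Of 60675 Ensembl IDs, 56558 matched the current gene names, 497 GENCODE only and 3620 none.

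Expected counts (10.5% of cells not whole) were rounded. CPM were computed on the library totals. With edgeR 4.0.16, TMM factors (0.884 to 1.06) and quasi-likelihood tests were fitted to 57 libraries in 19 groups, after a filter on low counts that left 17256 genes; Soshiho-tang was left out for want of replicates. Adjusted p-values are Benjamini-Hochberg within a comparison, called under 0.05. No replicates were merged, since chi-square per degree of freedom between libraries of a group was 1.88 to 73.6. The fit was tested on simulated data. Promoters and miRNAs are from RefSeq; 7 of 9 members had a promoter entry.

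The members and lists were chosen with earlier results of these data known. All members were named in each comparison; of the lists, the genes called with the largest log2 fold change, up to 3 in each direction, and IGF2, IGF1, INSR and IGF2R; the genes most like H19, IGFBP5 and IGFBP3 by correlation, 3 for each. CRIM1 at 500 against 20 was named by this rule as a single call. Alternatives were DESeq2 1.42.0, no filter, library totals, mitochondrially encoded genes left out, only the groups compared, the replicate block, a term for the step after the 31st library, only libraries on 1 side of it, and leaving out each library. Same-numbered libraries deviated together, with every correlation over 0.1, in 3 comparisons (Saengmaek-san 500 and 100 against 20, Guibi-tang 100 against 20); the labels name no shared culture or day. A count carries counting error only: intervals for single libraries are exact Poisson at 95%.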

Additional observations from a re-analysis of the deposited data

Results flagged for a closer look

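The 3 Soshiho-tang libraries, 1 per dose and outside every comparison, held 7 member levels whose 95% counting interval lay above the highest vehicle library. They have no replicate check, all 3 lie after the step in library order while vehicle lies before it, and its part in these levels was not tested. The counting interval leaves out the spread between libraries of a group, where chi-square per degree of freedom was 1.88 to 73.6. The share of all genes with such levels is not given here, so nothing particular to the members is read from them. IGFBP4 stood at 1974 CPM at 500 (95% counting interval 1956 to 1992) and 1935 CPM at 20, against a highest vehicle value of 1912 CPM. IGFBP5 stood at 23.3 CPM at 500 (21.3 to 25.3), the highest of all 60 libraries, against 20.3 CPM. IGFBP7 stood at 50.8 CPM at 100 and 51.7 CPM at 20, against 47.4 CPM. H19 stood at 144 CPM at 100 (139 to 149), against 139 CPM, but at 103 CPM at 500. IGF1R stood at 434 CPM at 500 (425 to 443), against 414 CPM. Other member levels had an interval below the lowest vehicle library. IGFBP3 stood at 126 CPM at 500 (121 to 131), the lowest of all 60 libraries, against 158 CPM. At 100 it stood at 148 CPM (143 to 153). IGF1R stood at 380 CPM at 20 (372 to 388), against 409 CPM. H19 at 500 (98.9 to 107) lay below 136 CPM, and IGFBP6 at 500 (25.8 to 30.17) below 30.24 CPM.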

How the results depend on the processing

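No call of a member reversed direction under the alternatives run. At 500 against vehicle (2 calls) the count was 5 with no filter, 7 with the step term, 9 with only the groups compared, 4 among libraries before the step (2 comparisons, none called in them otherwise), and 1 to 3 without each library. At 500 against 20 (1 call) it was 4 with no filter, 3 with the step term, 3 with only the groups compared, 2 with library totals, with the replicate block, with DESeq2 and after the step, and 1 to 2 without each library. At 100 against 20 (0 calls) it was 2 with no filter and 1 with the step term, before the step and with only the groups compared, and 0 without each library. At the lower doses against vehicle (1 call) it was 14 with the step term, 7 with only the groups compared, 4 before the step, 2 with no filter, and 0 to 2 without each library. Between extracts (1 call) it was 2 with no filter or only the groups compared, 0 without mitochondrially encoded genes, and 0 to 1 without each library. The causes were not tested. The share of all genes called under each alternative is not given here, so nothing about the members is read from these changes in count. The replicate block added 1 call, H19 with Soyo-san at 500 against 20, and changed no other. At most 50 counts per library limit what can be seen of IGFBP1.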
